A study of Mus musculus with 12 samples.

Results

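The genes described here encode 5 receptors through which macrophages sense chemical attractants: Fpr2, the formyl peptide receptor 2, C5ar1 and C3ar1, the receptors of the complement fragments C5a and C3a, Ptafr, the receptor of platelet-activating factor, and Ltb4r1, the high-affinity receptor of leukotriene B4. They were found by symbol among the 18193 genes measured, and each gene was read from its brightest probe set, meaning the set of short oligonucleotides with the highest mean over the arrays. All 5 were found. The series profiled macrophages grown in culture from bone marrow of C57Bl/6 mice with macrophage colony-stimulating factor (M-CSF), in 4 groups of 3 biological replicates lettered A, B and C. Untreated cells had no lipopolysaccharide (LPS), the outer membrane component of Gram-negative bacteria. Cells of the group LPS once had 100 ng/ml LPS in the last step only, pretreated cells had it for 18 h in the first step only, and restimulated cells had it in both steps. Cells of every group had the same strain, M-CSF, change of medium and 2 h of rest between the steps. The sources used here do not give how long the last step lasted. The labels call the replicates biological without naming separate animals, so the tests measure the spread between these samples.

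These receptors span the membrane repeatedly and signal mostly through inhibitory G proteins, whose beta and gamma subunits drive phosphoinositide 3-kinase gamma, calcium release and Rac, and so cell movement toward a source. Receptor kinases, arrestins and RGS proteins then switch the signal off. Fpr2 binds bacterial and mitochondrial formyl peptides as well as host ligands such as serum amyloid A and annexin A1. C5a and C3a are cut from complement proteins, while platelet-activating factor and leukotriene B4 are lipids that cells make from membrane phospholipid.

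The RefSeq promoter table of assembly GRCm38.p6 held all 5 members. The 250 bases before the annotated start are shown, 5′ to 3′ on the gene's strand, for the receptor with the largest change and for both anaphylatoxin receptors, with matches to the searched motifs in capitals. The stretches lie at chr17:17887574-17887823 on the plus strand for Fpr2, at chr6:122856158-122856407 on the minus strand for C3ar1 and at chr7:16259339-16259588 on the minus strand for C5ar1.
Fpr2: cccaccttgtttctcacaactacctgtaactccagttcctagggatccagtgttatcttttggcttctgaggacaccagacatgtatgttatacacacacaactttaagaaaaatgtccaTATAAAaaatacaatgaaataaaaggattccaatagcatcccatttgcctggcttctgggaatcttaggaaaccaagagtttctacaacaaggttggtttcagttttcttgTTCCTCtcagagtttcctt
C3ar1: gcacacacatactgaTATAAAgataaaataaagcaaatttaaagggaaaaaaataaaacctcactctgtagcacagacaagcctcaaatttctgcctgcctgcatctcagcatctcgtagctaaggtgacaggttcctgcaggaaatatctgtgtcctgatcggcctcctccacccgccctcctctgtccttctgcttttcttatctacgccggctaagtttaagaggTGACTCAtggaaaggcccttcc
C5ar1: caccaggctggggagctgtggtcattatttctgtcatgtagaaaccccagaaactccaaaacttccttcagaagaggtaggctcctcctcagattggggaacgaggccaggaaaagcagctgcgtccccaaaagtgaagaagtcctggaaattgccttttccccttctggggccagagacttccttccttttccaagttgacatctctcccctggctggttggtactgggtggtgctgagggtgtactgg
The search covered both strands for the TATA box (TATAAA), the PU.1 core (GAGGAA), the AP-1 motif (TGANTCA), the C/EBP motif (TTGCNNAA), and, by name, the interferon response and NF-kappaB motifs. The Fpr2 stretch held a TATA box 130 to 125 bases before the start and a PU.1 core on the opposite strand, printed as TTCCTC, 19 to 14 bases before it. The C3ar1 stretch held the AP-1 match TGACTCA 22 to 16 bases before the start and a TATA box 235 to 230 bases before it. No searched motif matched in the C5ar1 stretch, and the Ptafr and Ltb4r1 stretches each held a PU.1 core. Over all 32851 promoters of the table, stretches of the same length held a PU.1 core in 23.3%, a TATA box in 12.4% and an AP-1 match in 6.75%. The C/EBP, interferon response and NF-kappaB motifs, which matched in none of the 5, were present in 9.56%, 2.98% and 7.25%. The Fpr2 stretch had 38.8% G and C bases, against a median of 52.4% over all promoters. A match describes the letters and was not tested as a binding site.

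The arrays were Affymetrix arrays hybridised with total RNA of the cultures, and their median intensities lay between 29.72 and 31.65. Restimulated replicate C stood apart, with a mean intensity of 246.7 where the other 11 arrays had 310.0 to 317.0. Over 6208 genes of middle intensity its median difference from the other arrays of its group was -0.51 on the log2 scale, and results that turn on it are also given without it. Leaving it out changed no call of these 5 receptors. Of 7 measured macrophage markers 0 lay below the array median on every array, and Csf1r, Adgre1 and Cd68 had intensities of 5042 or more throughout. Of the other lists, 5 of 7 mast cell and basophil markers, 3 of 6 lymphocyte markers and 4 of 8 dendritic cell markers lay below the median on every array. Of 10 neutrophil markers 0 lay below it on every array, and several differed between replicates, as described beside Ltb4r1.

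**Figure D1:**
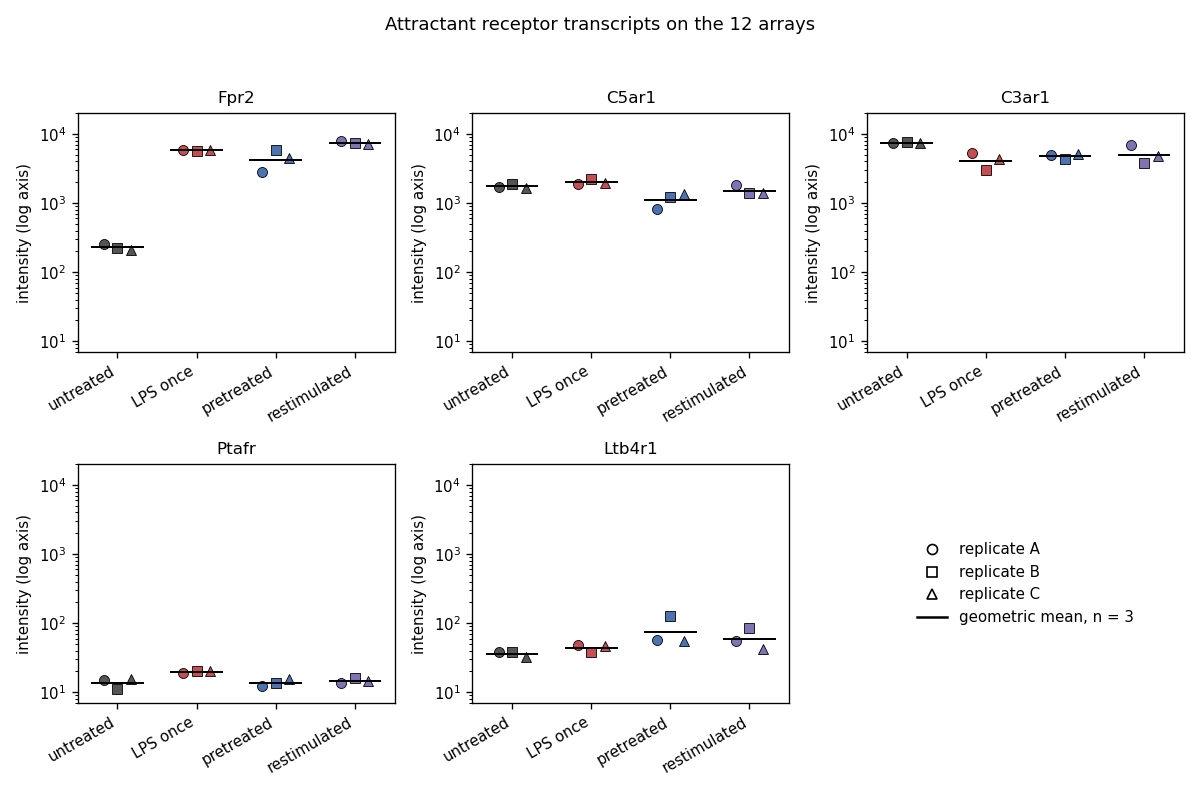
Intensity of the brightest probe set of each receptor gene on the 12 arrays (log axis), by group, with marker shape for the replicate letter and a bar for the geometric mean of 3 arrays. Fpr2 lay at 208 to 259 in untreated cells and at 2828 to 7851 on the other 9 arrays, while Ptafr stayed between 11.2 and 20.6.

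Fpr2 was the member that LPS changed most, and it was high in pretreated cells after the rest. No group was sampled before the rest, so its course through the rest was not measured. Untreated replicates A, B and C had intensities of 259, 227 and 208. Cells given LPS once had 5851, 5624 and 5922, pretreated cells had 2828, 5903 and 4487 with no LPS in the last step, and restimulated cells had 7851, 7383 and 7166. All 9 arrays of LPS-treated cells were above all untreated arrays, and the pretreated arrays spread most.

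Fpr2 rose in the first response (LPS once against untreated) by 4.56 ± 0.211 (SE, n = 3 per group), with a 95% interval of 4.09 to 5.03. All differences are on the scale of log2(intensity + 16), where this corresponds to 23.6-fold (limma adjusted p = 2.34e-06). A change was called where it reached 2-fold and its p, adjusted by Benjamini-Hochberg over all genes of the comparison, was under 0.05, which 13% of all genes met here. Fpr2 was the only one of the 5 members called in it. In bulk samples such as these, more cells that express a gene and more RNA per cell cannot be told apart.

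Fpr2 also rose in pretreated against untreated cells, by 4.10 ± 0.211 or 17.2-fold (interval 3.63 to 4.57, limma adjusted p = 2.61e-05). This comparison called 0.599% of all genes (109, or 197 with the letters as a replicate block) and Fpr2 alone of the members. It shares the untreated arrays with the first response, so the values stand side by side and are not independent. Pretreated and once stimulated cells overlapped, with a difference of -0.46 (interval -0.93 to 0.01, limma adjusted p = 0.145). Without pretreated replicate B, whose intensity of 5903 lay within the range of the cells given LPS once, that difference was -0.70 (limma adjusted p = 0.0146), and without pretreated replicate A it was -0.17 (limma adjusted p = 0.392).

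The second response of Fpr2 (restimulated against pretreated) was much smaller than the first. The restimulated arrays lay above the pretreated ones, but the difference of 0.82 (interval 0.35 to 1.29), or 1.77-fold, did not pass the test (limma adjusted p = 0.0627). By limma 0 of the 5 members were called in the second response (2 had an unadjusted p under 0.05), which called 1.95% of all genes. Leaving out pretreated replicate B gave 1.06 for Fpr2 (limma adjusted p = 0.00951), which would be called, and leaving out restimulated replicate C gave 0.85 (limma adjusted p = 0.132). Leaving out pretreated replicate A gave 0.53 (limma adjusted p = 0.0872).

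The test of the difference between both responses, the interaction, was called for Fpr2 at -3.74 ± 0.299 (interval -4.41 to -3.07, limma adjusted p = 0.000319). It called 2.67% of all genes and no other member, and without restimulated replicate C the value for Fpr2 was -3.71 (limma adjusted p = 0.00101). The level after LPS was not lower in restimulated than in once stimulated cells: the restimulated arrays were the higher ones, by 0.36 (interval -0.11 to 0.84, limma adjusted p = 0.326). Against untreated cells restimulated Fpr2 rose by 4.92 ± 0.211 or 30.3-fold (limma adjusted p = 4.58e-06), and by 4.95 without replicate C. Restimulated against untreated cells had 5.27% of all genes called, and again Fpr2 alone of the members. The level after LPS had 5.66% called and by limma 0 members, with 2 at an unadjusted p under 0.05.

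**Figure D2:**
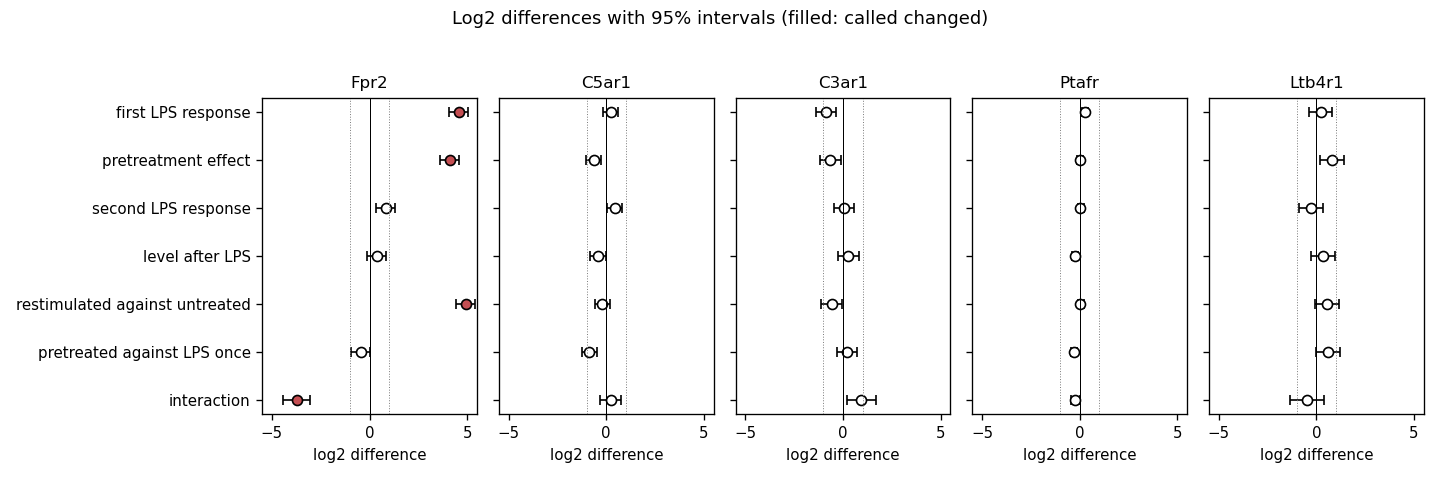
Log2 differences of the 5 receptor genes in 7 comparisons with 95% intervals from the limma fit; filled points were called changed and dotted lines mark 2-fold. "Pretreatment effect" is pretreated against untreated, "level after LPS" is restimulated against LPS once, and "interaction" is the second minus the first response. Filled points appear only for Fpr2, at 4.56, 4.10, 4.92 and -3.74.

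Fpr1, Fpr3 and C5ar2, the nearest relatives of these receptors, were not analysed here. Fpr-rs3 and Fpr-rs4, further formyl peptide receptor genes named after their values were seen, lay between 9.75 and 16.1 and between 14.8 and 24.7 on the 12 arrays. Whether the Fpr2 probe set takes signal from close copies was not tested.

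C3ar1, the receptor of C3a, lay at or above the 98th percentile of the named probe sets of every array and was lower in every LPS-treated group than in untreated cells. The untreated replicates had 7492, 7571 and 7523, while cells given LPS once had 5345, 2982 and 4391. Pretreated cells had 4958, 4373 and 5119, and restimulated cells 6885, 3788 and 4838. No LPS-treated array reached the untreated range, and replicate B was the lowest in each of the 3 treated groups.

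The first response of C3ar1 was -0.87 ± 0.233 (SE, n = 3 per group, interval -1.39 to -0.35). It passed the p threshold (limma adjusted p = 0.0173) but not the 2-fold limit, so it was not called. It had limma adjusted p = 0.0536 without replicate B of LPS once, at -0.63, and 0.0803 after scaling the arrays to a common 75th percentile, at -0.60. The second and the third brightest probe set of C3ar1 were both called lower in the first response, at -1.44 ± 0.226 (limma adjusted p = 0.00103) and -1.38 ± 0.262 (limma adjusted p = 0.00299). On the former the untreated intensities were 6899, 7096 and 6884 and those after LPS once were 3276, 1936 and 2632. The size of the C3ar1 difference thus depended on the probe set, and its direction did not.

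Pretreated cells had C3ar1 differences from untreated cells of -0.65 (interval -1.17 to -0.12, limma adjusted p = 0.291), and restimulated cells of -0.58 (limma adjusted p = 0.114), both without overlap of the groups. The second response was 0.06 (interval -0.46 to 0.58) on the brightest probe set, and -0.23 and -0.28 on the others, none of them called. On the second brightest, pretreated cells lay above the cells given LPS once by 0.98 ± 0.226 (limma adjusted p = 0.00875) with no overlap, under 2-fold. The same comparison on the brightest probe set gave 0.22 (limma adjusted p = 0.551) with overlapping groups.

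**Figure D3:**
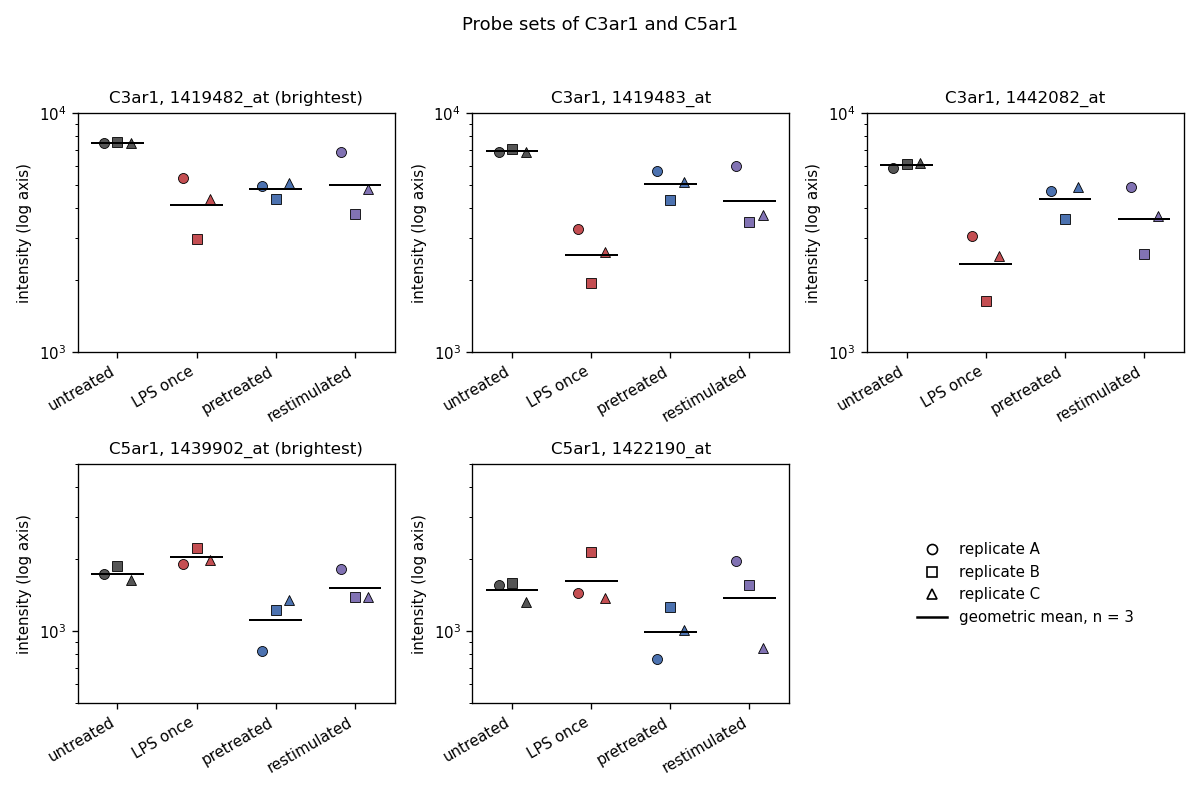
Intensities on all probe sets (identifiers in the panel titles) of C3ar1 (top) and C5ar1 (bottom) by group, on log axes, with marker shape for the replicate letter and a bar for the geometric mean of 3 arrays. Each C3ar1 probe set was highest in untreated cells and had its lowest array in replicate B of the cells given LPS once, at 2982, 1936 and 1629.

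C5ar1, the C5a receptor, lay between the 90th and the 97th percentile of the named probe sets and was lowest in pretreated cells. Untreated replicates had 1735, 1867 and 1634, cells given LPS once 1905, 2230 and 1985, pretreated cells 829, 1228 and 1349, and restimulated cells 1818, 1391 and 1384. The pretreated arrays lay below, and the arrays of LPS once above, the arrays of every other group. Between pretreated cells and cells given LPS once the difference was -0.86 ± 0.173 (interval -1.25 to -0.48, limma adjusted p = 0.00398), which passed the p threshold and stayed under 2-fold. This limma comparison called 13.1% of all genes and 0 members, with 2 at an unadjusted p under 0.05.

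The other C5ar1 differences did not pass the test. Pretreated against untreated cells gave -0.64 (interval -1.03 to -0.25, limma adjusted p = 0.148), and the second response gave 0.44 (interval 0.06 to 0.83, limma adjusted p = 0.191). Without pretreated replicate A, the lowest of its group, these were -0.433 (limma adjusted p = 0.266) and 0.236 (limma adjusted p = 0.446). Pretreated cells then differed from cells given LPS once by -0.655 (limma adjusted p = 0.00669). The first response was 0.22 (interval -0.17 to 0.61, limma adjusted p = 0.354). Without restimulated replicate C the second responses of C5ar1, C3ar1 and Ltb4r1 were 0.51, 0.0877 and -0.0905, none of them called. On the dimmer C5ar1 probe set pretreated cells differed from cells given LPS once by -0.70 (limma adjusted p = 0.121) and from untreated cells by -0.57 (limma adjusted p = 0.519). Its restimulated replicates spread from 850 to 1972, with replicate C lowest.

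Ltb4r1, the leukotriene B4 receptor, lay near the middle of the intensity range of the arrays. Its intensities were 38.6, 38.3 and 31.9 in untreated cells, 47.7, 38.8 and 46.3 after LPS once, 56.8, 129 and 55.9 in pretreated and 56.0, 86.0 and 42.7 in restimulated cells. Every pretreated and restimulated array lay above every untreated array, and replicate B was the highest in both groups. Pretreated cells differed from untreated cells by 0.81 ± 0.272 (SE, n = 3 per group, interval 0.20 to 1.41, limma adjusted p = 0.253), which was not called. Without pretreated replicate B the difference was 0.47 (limma adjusted p = 0.505).

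Several granulocyte genes were also highest in replicate B. S100a9, a granulocyte calcium-binding protein, had 1529 in untreated replicate B against 78.0 in A and 594 in C. Mmp8, the neutrophil collagenase, had 3000 in pretreated replicate B against 251 in A and 713 in C. In restimulated cells it had 2138 in B against 184 and 332. Of the 10 neutrophil markers 4, S100a8, S100a9, Mmp8 and Ngp, were highest in replicate B of all 4 groups. Ltf and Prtn3 were so in 3 groups, Csf3r, Cxcr2 and Mpo in 1 and Elane in 0. The summed intensity of the 10 neutrophil markers ranged from 2143 to 5952 in untreated cells, 3511 to 7885 after LPS once, 4677 to 8509 in pretreated and 4461 to 7595 in restimulated cells, and by limma 0 of 10 were called in any comparison, with 0 to 2 at an unadjusted p under 0.05. Fpr2 was highest in replicate B among pretreated cells only. The part of granulocytes in the Ltb4r1 and Fpr2 values was not tested.

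**Figure D4:**
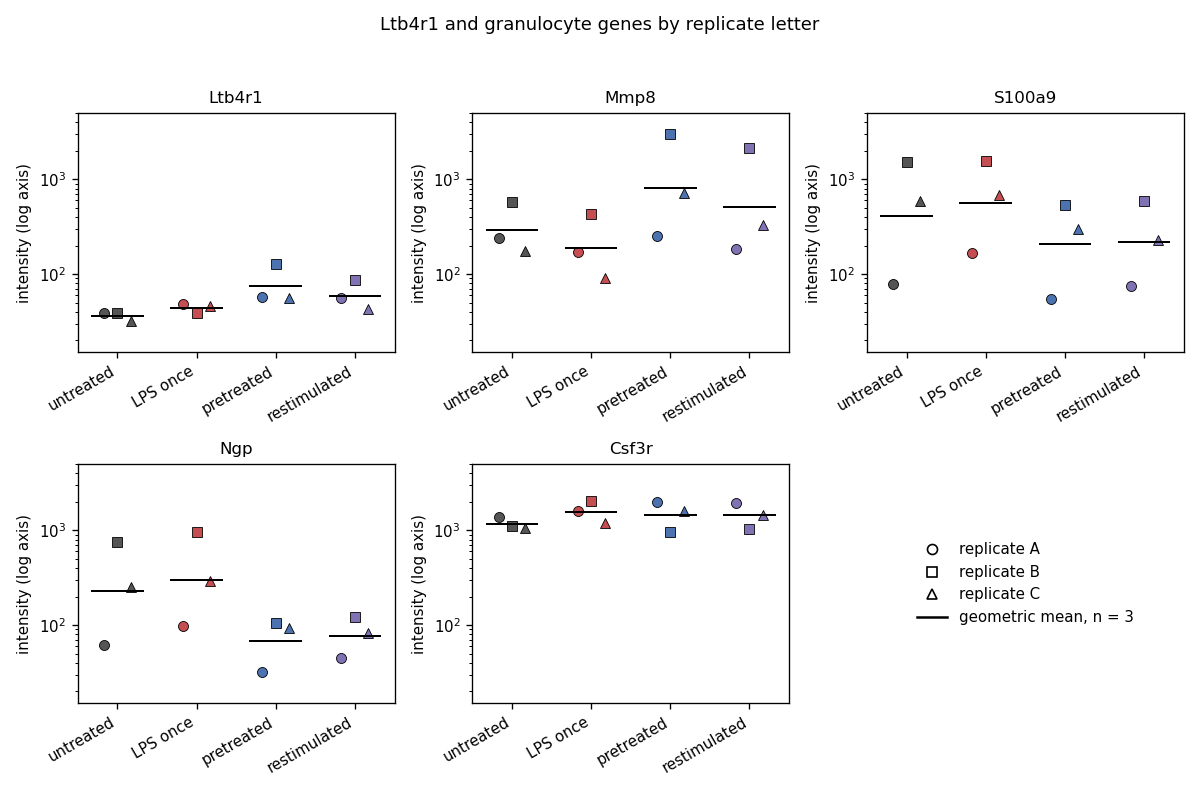
Intensities of Ltb4r1 and of the granulocyte genes Mmp8, S100a9, Ngp and Csf3r on the 12 arrays (log axis), by group and replicate letter, with bars for geometric means of 3 arrays. In pretreated cells replicate B (squares) had 129 for Ltb4r1 and 3000 for Mmp8, the highest of that group in both.

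Ptafr, the receptor of platelet-activating factor, lay at the dim end of the arrays. Its intensities were 14.9, 11.2 and 15.6 in untreated cells, 19.3, 20.1 and 20.6 after LPS once, 12.3, 13.7 and 15.6 in pretreated and 13.8, 15.9 and 14.5 in restimulated cells. Every value lay below the median of its array. The arrays of LPS once lay above all others, by 0.27 ± 0.0692 against untreated cells (interval 0.12 to 0.43, limma adjusted p = 0.0137), a difference far under 2-fold. The second Ptafr probe set had 9.78 to 15.2 and a first response of 0.05 (limma adjusted p = 0.526), and no detection call was used here to say whether either measured the transcript.

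Counted together, groups did not overlap for 5 of 5 members in the first response, where 56.6% of all genes did not overlap, with Fpr2, C5ar1, Ltb4r1 and Ptafr higher and C3ar1 lower. In pretreated against untreated cells 4 of 5 did not overlap (27.3% of all genes), with Fpr2 and Ltb4r1 higher and C5ar1 and C3ar1 lower. The second response had 2 of 5, Fpr2 and C5ar1, both higher (23.1%). The level after LPS had 3 of 5, with Fpr2 higher and C5ar1 and Ptafr lower (25.7%). Restimulated against untreated cells had 3 of 5, with Fpr2 and Ltb4r1 higher and C3ar1 lower (39.7%). The comparison of pretreated cells with LPS once had 3 of 5, with Ltb4r1 higher and C5ar1 and Ptafr lower (47%). The median member difference was 0.22 in the first response, against 0.04 over all genes, and 0.00 in pretreated against untreated cells, against 0.02.

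Over the 12 arrays Fpr2 and C3ar1 had a Pearson r of -0.725, and Fpr2 and C5ar1 had r = -0.127. The untreated arrays were the lowest in Fpr2 and the highest in C3ar1, and the correlation among the treated arrays alone was not computed. These correlations describe 12 arrays that share groups and replicate letters. The genes most like Fpr2, among 3292 with a mean of at least 6 and a range of group means of at least 1 on the log2 scale, were Mmp14, a membrane-bound matrix protease (r = 0.981), Saa3 (r = 0.979) and the chemokine gene Ccl5 (r = 0.977). C3ar1 was most like Otud1 (r = 0.896), the fractalkine receptor gene Cx3cr1 (r = 0.877) and Hebp1 (r = 0.836), whose protein gives rise to a peptide ligand of formyl peptide receptors. The genes nearest to C5ar1 were Rbm12 (r = 0.907), Plec (r = 0.903) and Sfpq (r = 0.898), and those nearest to Ltb4r1 were Uchl1 (r = 0.923), Arg1 (r = 0.919) and Cd1d1 (r = 0.913). For Ptafr they were Gpr132 (r = 0.905), Tmem243 (r = 0.900) and Ciapin1 (r = 0.899), at a level of Ptafr where little signal was present.

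Of 16 listed genes for other attractant receptors 12 were measured, and some of them were called in each direction in both responses to LPS. Over all genes the first response called 3.9% higher and 9.1% lower, the pretreatment comparison 0.291% and 0.308%, and the second response 0.665% and 1.29%. This split moved with the scaling of the arrays: a common 75th percentile gave 1043 genes higher and 1064 lower in the first response, in place of 709 and 1655, and 114 and 77 in the pretreatment comparison, in place of 53 and 56. In the second response it gave 216 and 157, and quantile normalization 176 and 164, in place of 121 and 234. Of these 12 receptors 2 were called higher and 5 lower in the first response, with a median of -0.25, and 2 higher and 3 lower in the second, with a median of -0.29. Ccrl2, a receptor that holds the attractant chemerin, had 142, 167 and 152 in untreated cells and 2826, 3155 and 3852 after LPS once, but 112, 98.5 and 103 in pretreated cells. It rose by 4.27 ± 0.246 in the first response (limma adjusted p = 6.3e-06), and its pretreated level differed from untreated by -0.50 (limma adjusted p = 0.486). Ccrl2 and Fpr2 thus had first responses of like size and pretreated levels at opposite ends of them.

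Gpr84, a receptor of medium-chain fatty acids, rose in both responses, by 3.49 ± 0.519 and 3.09 ± 0.519 (limma adjusted p = 0.000763 and 0.0142). Lpar6, a lysophosphatidic acid receptor, and Gpr183, an oxysterol receptor, fell in both. For Lpar6 the values were -4.57 ± 0.449 and -2.05 ± 0.449 (limma adjusted p = 7.34e-05 and 0.0367), and for Gpr183 -3.56 ± 0.332 and -2.43 ± 0.332 (limma adjusted p = 5.78e-05 and 0.00755). The second call of Lpar6 was lost in 8 of 12 fits with an array left out, with limma adjusted p up to 0.156. Among these was the fit without restimulated replicate C, at -1.98 (limma adjusted p = 0.103). The second call of Gpr84 was lost without pretreated replicate C (limma adjusted p = 0.0528). A fit of only the pretreated and restimulated arrays called neither Gpr84, Lpar6 nor Gpr183 in the second response. There limma adjusted p was 0.173 for Gpr84, 0.118 for Lpar6 and 0.141 for Gpr183. By limma the pretreatment comparison called 0 of these 12 receptors, with 3 at an unadjusted p under 0.05, and Fpr2 of the members.

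**Figure D5:**
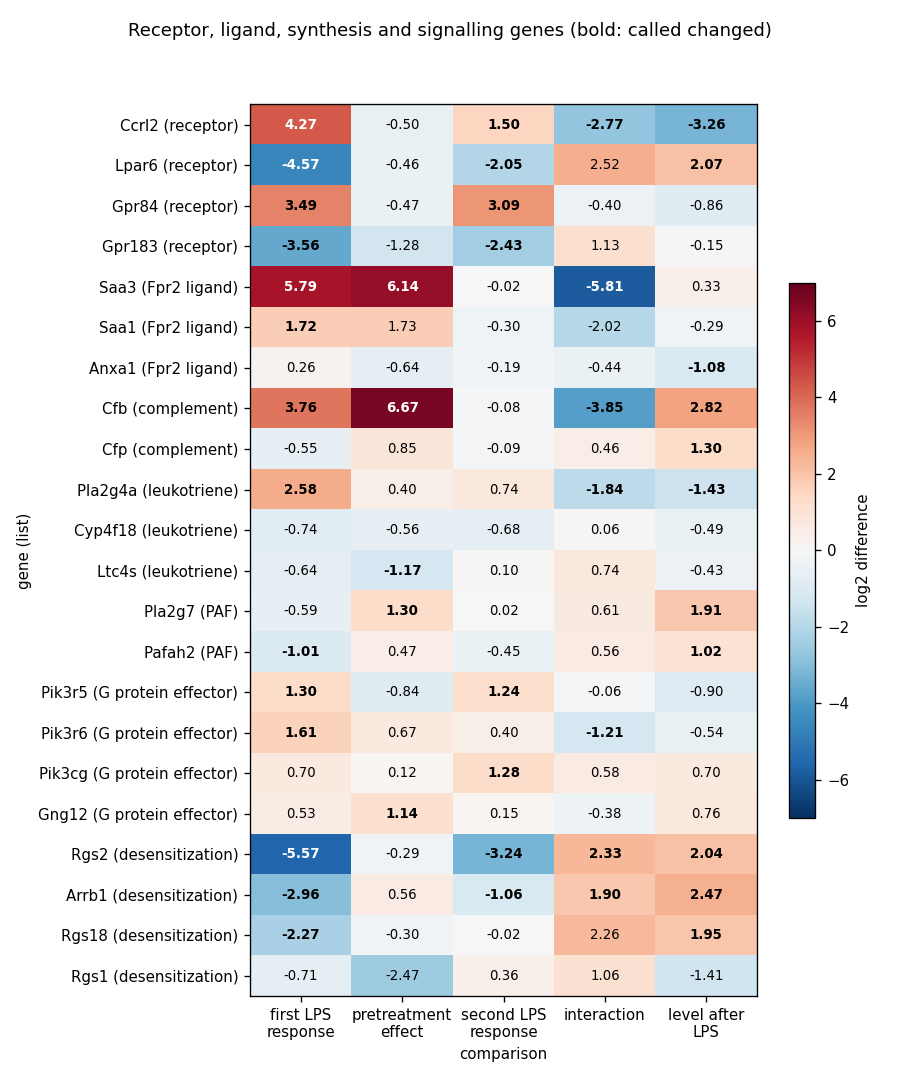
Log2 differences of the named genes of the receptor, ligand, synthesis and signalling lists in 5 comparisons, with bold type for called changes (PAF, platelet-activating factor; level after LPS, restimulated against LPS once). Saa3 and Cfb rose both in the first response (5.79 and 3.76) and in pretreated cells (6.14 and 6.67), and Rgs2, Arrb1 and Rgs18 fell in the first response (-5.57, -2.96 and -2.27).

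Among 5 genes for protein ligands of Fpr2, 2 were called higher in the first response (3.9% of all genes) and 1 in pretreated cells (0.291%). The medians were 0.98 and 0.52, against 0.04 and 0.02 over all genes. Both medians are the values of Camp, named after its values were seen and not called (limma adjusted p = 0.191 and 0.81). Camp was highest in replicate B of untreated cells (107 against 33.9 and 41.6), but in restimulated cells C had 218 and B 214. Saa3, a serum amyloid A gene, had 154, 186 and 214 in untreated cells and 9632 to 14571 on the other 9 arrays. It rose by 5.79 ± 0.115 in the first response (limma adjusted p = 8.04e-09) and by 6.14 ± 0.115 in pretreated cells (limma adjusted p = 4.57e-09). Its second response was -0.02 (limma adjusted p = 0.953), at intensities near the array maxima of 15230 to 16569. Whether these values were compressed there was not tested.

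Saa1, another serum amyloid A gene, rose by 1.72 ± 0.442 in the first response (limma adjusted p = 0.0142). It was dim and spread widely, with 15.8, 14.5 and 13.9 in untreated cells and 97.8, 174 and 31.5 after LPS once. With an array left out the difference ran from 1.26 to 2.26, and a pseudocount of 64 lost the call, at 0.971. Its difference in pretreated cells was of like size, 1.73, but not called (limma adjusted p = 0.128). Anxa1, which encodes annexin A1, moved differently. It had 8003, 7042 and 7215 in untreated cells, 9357, 7977 and 9307 after LPS once, 4300, 5729 and 4352 in pretreated and 4537, 4952 and 3234 in restimulated cells. After LPS the restimulated arrays lay below those of cells given LPS once, with a called difference of -1.08 ± 0.165 (limma adjusted p = 0.00233). Without restimulated replicate C it was -0.90 (limma adjusted p = 0.00224) and under the 2-fold limit. The Anxa1 difference was also under that limit with quantile normalization (-0.996) and with the mean of its probe sets (-0.613).

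Of 9 measured anaphylatoxin sources and regulators (of 13 listed, with C3 itself not analysed here), 1 rose in the first response and 1 in pretreated cells, and 2 were higher in the level after LPS. Over all genes 3.9% were called higher in the first response, 0.291% in pretreated cells and 5.66% in either direction in the level after LPS. Cfb, factor B of the alternative pathway, had 24.6, 26.4 and 39.1 in untreated cells and 3577, 6214 and 4469 in pretreated cells. It rose by 6.67 ± 0.391 in pretreated cells (limma adjusted p = 6.59e-05) and by 3.76 ± 0.391 in the first response (limma adjusted p = 0.000101). Pretreated cells lay above cells given LPS once by 2.91 ± 0.391 (limma adjusted p = 0.00041). Cfp, which encodes properdin, the stabiliser of the alternative pathway convertase, was higher after LPS in restimulated than in once stimulated cells by 1.30 ± 0.153 (limma adjusted p = 0.000604). With the mean of its probe sets that difference was 0.74, under the 2-fold limit. Hc, the gene of the C5a precursor, stayed between 14.1 and 20.7 on all arrays.

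The leukotriene B4 list had 7 of 7 genes measured, with 1 higher in the first response (3.9% of all genes) and a median of -0.64. Pla2g4a, the cytosolic phospholipase that frees arachidonic acid, had 258, 274 and 290 in untreated cells and 1907, 2282 and 1163 after LPS once. It rose by 2.58 ± 0.269 (limma adjusted p = 0.000102), and its second response was 0.74 (limma adjusted p = 0.159). Ltc4s, which uses the same precursor to make leukotriene C4, fell in pretreated cells (-1.17 ± 0.154, limma adjusted p = 0.00777). Cyp4f18, which inactivates leukotriene B4, fell in restimulated against untreated cells (-1.23 ± 0.244, limma adjusted p = 0.0105). That call was lost, under 2-fold, with the mean of its probe sets (-0.552) and with a pseudocount of 64 (-0.892). It was also lost with quantile normalization (-0.996) and with a common 75th percentile (-0.926). Alox5, Alox5ap and Lta4h, the enzymes and helper protein of the synthesis itself, are named after their values were seen. They had first responses of -0.22, -0.77 and -0.98 (limma adjusted p = 0.0488, 8.04e-05 and 9.85e-05), all under 2-fold, and were not called in any comparison.

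Genes listed for the synthesis and breakdown of platelet-activating factor, 8 of 8 measured, had 1 called lower in the first response and 1 called higher in pretreated cells. Over all genes 9.1% were called lower in the former and 0.291% higher in the latter. Pla2g7, the secreted enzyme that inactivates the lipid, had 3091, 2955 and 2940 in untreated cells, 2102, 2224 and 1673 after LPS once, 7335, 7192 and 7639 in pretreated and 7635, 7768 and 7054 in restimulated cells. It rose in pretreated cells by 1.30 ± 0.0963 (limma adjusted p = 0.000219) and was higher after LPS in restimulated than in once stimulated cells by 1.91 ± 0.0963 (limma adjusted p = 8.18e-06). Pafah2, an intracellular enzyme of the same kind, fell in the first response (-1.01 ± 0.289, limma adjusted p = 0.0231), a call lost in 5 of 12 fits with an array left out. That call was also lost, under 2-fold, with quantile normalization (-0.7), a common 75th percentile (-0.743) and a pseudocount of 64 (-0.795). Lpcat1 and Lpcat2, which act in the synthesis of the lipid, and Lpcat3 were not called in any comparison.

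Downstream, 21 of 24 genes for G protein subunits and effectors were measured, and 2 were called in each of the first response, the pretreatment comparison and the second response, all higher. Over all genes 3.9%, 0.291% and 0.665% were called higher in these comparisons. Pik3r5 and Pik3r6, the regulatory subunits of phosphoinositide 3-kinase gamma, rose in the first response by 1.30 ± 0.202 and 1.61 ± 0.149 (limma adjusted p = 0.000984 and 5.6e-05). Pik3cg, its catalytic subunit, rose in the second response by 1.28 ± 0.236 (limma adjusted p = 0.0205), as did Pik3r5 by 1.24 ± 0.202 (limma adjusted p = 0.0137). The Pik3cg call was lost in 4 of 12 fits with an array left out. Among these was the fit without restimulated replicate C, at 1.31 (limma adjusted p = 0.0544). The Pik3r5 call was lost without pretreated replicate A (limma adjusted p = 0.0511). Both were lost in a fit of only the pretreated and restimulated arrays (limma adjusted p = 0.17 for each). Gng12, a gamma subunit, rose in pretreated cells (1.14 ± 0.159, limma adjusted p = 0.0107). That call was lost without pretreated replicate B, at 0.985, without pretreated replicate C (limma adjusted p = 0.0504) and with the mean of its probe sets, at 0.651 (limma adjusted p = 0.101).

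Of 12 measured genes that switch receptors off, 5 were called lower and 1 higher in the first response, with a median of -0.85 against 0.04 over all genes. Over all genes 9.1% were called lower and 3.9% higher in it. Rgs2 had 2274, 1992 and 2214 in untreated cells, 43.4, 19.6 and 29.0 after LPS once and 2360, 1138 and 2027 in pretreated cells. Its first response was -5.57 ± 0.342 (limma adjusted p = 8.18e-06) and its second -3.24 ± 0.342 (limma adjusted p = 0.00293). The second call of Rgs2 was lost in a fit of only the pretreated and restimulated arrays (limma adjusted p = 0.118). Arrb1, which encodes beta-arrestin 1, had 936, 870 and 937 in untreated cells, 90.7, 97.8 and 125 after LPS once, 1471, 1195 and 1427 in pretreated and 738, 818 and 443 in restimulated cells.

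Arrb1 fell by 2.96 on the log2 scale in the first response (limma adjusted p = 1.23e-05) and by 1.06 in the second (limma adjusted p = 0.0235), with standard errors of 0.202. The second call was lost without restimulated replicate C, at -0.79, and without pretreated replicate A or C (limma adjusted p = 0.0915 and 0.105). A fit of only the pretreated and restimulated arrays lost it as well (limma adjusted p = 0.187). The second response of Arrb1 was also under 2-fold with quantile normalization (-0.886) and with a common 75th percentile (-0.816). Rgs18 fell in the first response (-2.27 ± 0.396, limma adjusted p = 0.00181). Rgs1 spread from 200 to 1274 after LPS once, and it was called only lower in restimulated against untreated cells (-2.11 ± 0.607, limma adjusted p = 0.0432). That call was lost in 9 of 12 fits with an array left out. Among these was the fit without restimulated replicate C, at -1.99 (limma adjusted p = 0.11). By limma 0 of the 12 genes were called in pretreated against untreated cells, with 4 at an unadjusted p under 0.05 and a median of -0.26. In the level after LPS 4 were higher and 1 lower, with a median of 0.54, where 5.66% of all genes were called in either direction.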

How the data were processed

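Per the labels, RNA was isolated with TriFast and labelled for Affymetrix arrays. The authors deposited 1 table of linear intensity values. The program, background correction and scaling are not named in the sources used here. Of 45101 probe sets, 64 were controls, 34945 had 1 symbol in the platform annotation, 932 several and 9160 were unnamed here. The RefSeq gene table of GRCm38.p6 updated 34741 symbols, and 204 were kept.

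Intensities were transformed as log2(value + 16), which understates changes of dim genes, without further normalization. limma 3.58.1 in R 4.3.3 fitted 4 group means over 12 arrays and 18193 genes (8 residual and 1.71 prior degrees of freedom), with 7 contrasts. Errors are standard errors (SE) of the fit. The fit was tested on simulated data. The number of arrays limits precision.

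Replicate letters paired the samples: deviations from group means correlated at 0.25 to 0.656 within letters (18 pairs) and at -0.482 to 0.0134 between them (36 pairs). Taking deviations from group means ties both sets of values together, so the negative ones are no separate evidence of pairing. The letters' meaning beyond replicate is not given in the labels.

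Members and gene lists were chosen with earlier results of these data known. The text names all members, the 3 genes most correlated with each, and per list up to 4 called genes with the largest changes (at least 2 genes). Alternatives covered pseudocount, normalization, dim genes, probe set, replicate block, variance trend and arrays left out.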

Additional observations from a re-analysis of the deposited data

Results flagged for a closer look

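For 8 of the genes named here the second response to LPS differed from the first by the limma test of that difference (restimulated minus pretreated, less LPS once minus untreated, n = 3 per group). Among the receptors this was Fpr2, at -3.74 ± 0.299 (SE, limma adjusted p = 0.000319), the only one of the 5 members. Of the other attractant receptors it was Ccrl2, at -2.77 ± 0.348 (limma adjusted p = 0.00437). Fpr2 and Ccrl2 reached this by different levels. Fpr2 was already at 2828 to 5903 in pretreated cells, whereas Ccrl2 was at 98.5 to 112 there and at 196 to 447 in restimulated cells.

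Of the ligand and synthesis genes, Saa3 differed by -5.81 ± 0.162 (limma adjusted p = 2.22e-07), Cfb by -3.85 ± 0.553 (limma adjusted p = 0.00716) and Pla2g4a by -1.84 ± 0.38 (limma adjusted p = 0.0308). The Pla2g4a call was lost in 8 of 12 fits with an array left out. Pik3r6, a regulatory subunit of phosphoinositide 3-kinase gamma, differed by -1.21 ± 0.211 (limma adjusted p = 0.0174). Rgs2 and Arrb1, which had fallen in both responses, differed in the other direction, the second fall being the smaller one: Rgs2 by 2.33 ± 0.484 (limma adjusted p = 0.0313) and Arrb1 by 1.90 ± 0.286 (limma adjusted p = 0.00893). The Rgs2 call was lost in 8 of these 12 fits. Groups of 3 arrays are too small for a test of single outlying arrays.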

How the results depend on the processing

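Fpr2 kept its calls in the first response (4.31 to 4.82), in pretreated against untreated cells (3.86 to 4.39) and in the interaction (-4.02 to -3.50) under all alternatives run. The replicate block left the Fpr2 differences in place, with limma adjusted p of 1.98e-05 for the first response, and changed no member's call. Over all genes it raised the calls in pretreated against untreated cells from 109 to 197, and leaving out an array lowered them to as few as 51. Second response calls numbered 355, but 584 without restimulated replicate B and 1 with only the arrays compared. With only the arrays compared, every second response call of a named gene was lost (limma adjusted p = 0.118 to 0.187). Interaction calls (485) ranged from 198 to 735, and calls in the level after LPS (1029) from 592 to 1203.

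With the mean of all probe sets, 2 members changed in the first response, C3ar1 being the second, where 1794 of 18193 genes were called. Leaving out an array gave 1 to 2 members (2 without replicate A of LPS once, where 2541 genes were called). With arrays scaled to a common 75th percentile, 1 member changed in the second response (Fpr2, 1.06), where 373 genes were called. That scaling also gave 1 member in pretreated cells against LPS once (C5ar1, -1.06), where 2305 genes were called. Leaving out an array gave 0 to 1 members in both comparisons. The second response reached 1 without pretreated replicate B (548 genes called). The comparison of pretreated cells with LPS once did so without pretreated replicate C (2216 genes called).

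Small differences changed sign. The Ptafr difference in pretreated cells became 0.000178 with a pseudocount of 1 and 0.0638 with percentile scaling, and ran from -0.0679 to 0.0403 with an array left out. For restimulated against untreated cells Ptafr gave -0.00933 with the mean of probe sets, -0.0589 on its other probe set and -0.0259 to 0.0823 with an array left out, and its second response on that probe set was -0.028. C5ar1 in restimulated against untreated cells became 0.109 with percentile scaling. The second response of C3ar1 was -0.151 with the mean of probe sets, -0.232 and -0.282 on the other probe sets and -0.166 to 0.264 with an array left out. Its difference between pretreated cells and LPS once ran from -0.0117 to 0.408, and the second response of Ltb4r1 from -0.489 to 0.0624. The cause was not tested. Of 1578 refits of 73 called changes of named pathway genes, 1463 kept the call, 115 lost it and none changed sign. Of 1071 recounts of list calls, 946 stayed within 1.5 times the original count and 125 did not.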
